A study of Arabidopsis thaliana with 30 samples.

Results

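Cytosolic ribosomal protein (RP) genes of Arabidopsis thaliana encode the proteins of the ribosomes that translate messages made from nuclear genes. The 45 genes described here were chosen by locus, as a fixed subset of the genes for large and small subunit proteins, and the rule used no measured value. They make up 45 of the 37513 entries of the count table. All 45 passed the filter on low counts, which left 19761 genes in all. Of the 45, 29 encode large subunit proteins and 16 encode small subunit proteins. They fall into 29 protein families, and 15 families have 2 or more members here.

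Counts per gene were obtained by RNA sequencing from leaves of 3 lines of ecotype Columbia: untransformed WT plants and lines that overexpressed (OE) an Amaranthus hypochondriacus gene of unknown function, either Ah2880 (line L12) or AhHAB4-PAI-1 (line L13). Leaves were taken at 5 stages: after 1 h (HS-1), 5.5 h (HS-5) and 11 h (HS-11) of heat shock (HS) at 45 °C under constant light, and after 1 day (R-1) and 3 days (R-3) of recovery at 22 °C that followed 22 h of HS. The plants were 4 weeks old by their labels, whereas the main text gives 3 weeks, and it gives 5 h for the labelled 5.5 h. Each of the 15 treatments had 2 libraries labelled as biological replicates, each from the leaves of 10 plants, so the p-values measure the spread within such pairs. The broadly active CaMV 35S promoter drove the transgene in both OE lines, and each transgene was represented by plants of 1 homozygous transformed line. The effect of a transgene and that of its line cannot be told apart. Neither amaranth gene is in the count table, so the labels could not be checked against transgene level. No library of unheated plants was analysed here, so each comparison lies between heated or recovering plants.

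Ribosomes are large assemblies of ribosomal RNA and proteins, and each subunit carries a fixed set of proteins, mostly in a single copy. Plants encode nearly every RP by several near-identical genes, and their RP genes tend to be expressed together, at high levels in growing tissue and at lower levels under stress. The kinase TOR is known to promote their transcription and translation. Promoters of plant RP genes often hold a short telomere-like motif called the telo box, near the start of the gene, and a motif called site II, which was first described in genes of dividing cells.

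The telo box (AAACCCTA) and site II (TGGGCC or TGGGCT) were searched on both strands in the 300 bases from 250 before to 50 after each gene start, in the RefSeq annotation of TAIR10.1. A TGGGCC match can overlap a match on the other strand. The telo box was present in 23 of the 45 windows (51.1%), against 6.197% of the windows of 27561 protein-coding genes. Site II was present in 34 of 45 (75.6%), against 21.661%. Both were present in 18, and neither in 6: the L21 gene AT1G09590, RPL23AA (AT2G39460), RPSAb (AT3G04770), RPS5B (AT2G37270), RPS13A (AT4G00100) and the S28 gene AT3G10090. Of 26 telo boxes, 23 started within 50 bases of the gene start. Of 86 site II matches, 39 started more than 50 bases before it and the rest nearer. Most of the 300 bases searched lie more than 50 bases before the start, so these counts do not place site II mainly upstream.

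The windows below are shown for 6 genes that return in the results, with the motif or its reverse complement in capitals and the strand of the gene after the coordinates. AT1G33120 is the member with the highest level per kb of exon, RPS5A lay furthest below WT at HS-11 in AhHAB4-PAI-1 OE, RPL3B departed from its partner, and the others had higher levels in an OE line during HS.
AT1G33120 (L9), telo box, chr1:12010864-12010893, plus strand: tgaaagatattTAGGGTTTtttctcttgat
AT3G11940 (RPS5A), telo box, chr3:3779540-3779569, minus strand: cattagagcccAAACCCTAaatttctcatc
AT1G72370 (P40), telo box, chr1:27244956-27244985, minus strand: attttgcaaatTAGGGTTTtgcttgatata
AT5G20290 (S8), telo box, chr5:6853093-6853122, minus strand: agatgataaccTAGGGTTTatactccctat
AT1G18540 (L6), telo box, chr1:6378576-6378605, minus strand: aaagctcaatcTAGGGTTTatgtctctgat
AT1G61580 (RPL3B), site II, chr1:22723252-22723281, minus strand: attaaaactaaaTGGGCCgggctacttgac
The telo boxes of these genes lie in different flanks, and the core letters are what they share. A match describes the letters and does not show that a factor was bound.

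Libraries held 686550 to 5739590 counts, except the WT libraries of R-3, which held 46825 and 50677. The study describes the WT plants at R-3 as close to death. The leaf label was checked with 5 mesophyll genes, whose summed level lay between 31260 and 42610 CPM (counts scaled to a common library total) at HS-1 and at 1134 and 1153 CPM in the WT R-3 libraries. CPM here are scaled by TMM, a factor per library computed as if most genes did not change. The marker genes of guard cells (3 listed), epidermis (3) and dividing cells (4) were all at 0 in both WT R-3 libraries. All 45 members together had 179 and 218 counts there, and 6 and 5 members were at 0. Results at R-3 are therefore given apart from the others. Fewer cells of a type and less RNA per cell cannot be told apart in libraries from whole leaves.

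Levels differed widely between members. Per kb of exon, the mean over the 15 treatments was 379.4 CPM for AT1G33120 and 327.1 CPM for the L8 gene AT2G18020 (EMB2296), which is required for embryo development. It was 307.6 CPM for the S8 gene AT5G20290 and 289.6 CPM for RPL3A (AT1G43170), whose protein lies near the catalytic center of the ribosome. At the other end were RPL16A (AT2G42740), an L11 gene whose protein binds 5S rRNA, at 16.0, the S28 gene AT3G10090 at 9.66 and RPSAb (AT3G04770) at 8.67 CPM per kb. The highest level was thus more than an order of magnitude above the lowest, and the low members rest on few counts. Exon length here joins all annotated exons of a gene, at 1880 bases for the L7 gene AT2G44120 and 1200 for its partner AT2G01250. Members also differ in introns, from 0 in AT1G70600 to 7 in RPL5B (AT5G39740), and reads lost at introns were not measured. The order of members by level per kb may depend in part on these.

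The other large subunit genes lay between these. Near the top were the L4 genes AT3G09630 and AT5G02870, whose proteins line the exit tunnel for the new chain, at 262.6 and 244.3 CPM per kb. SAC52 (AT1G14320), the L10 protein that is needed for the subunits to join, was at 236.3, the L15 genes AT4G16720 and AT4G17390 at 197.4 and 177.5, and the L27a gene AT1G70600 at 196.0 CPM per kb. The P1 gene AT1G01100, for a protein of the stalk that recruits elongation factors, was at 147.1, the L28 gene AT2G19730 at 136.7, RPL5A (AT3G25520) at 136.6 and RPL5B (AT5G39740) at 106.2 CPM per kb. L5 proteins bind 5S rRNA, like L11. RPL18 (AT3G05590) was at 132.3, PGY1 (AT2G27530), the L10a gene known for its effect on leaf shape, at 127.5, and BBC1 (AT3G49010), an L13 gene, at 97.4 CPM per kb. Below 90 lay the L8 gene AT4G36130 (89.45), the L21 gene AT1G09590 (88.5), STV1 (AT3G53020; 76.05), RPL23AA (AT2G39460; 70.85), the L6 genes AT1G74060 (68.2) and AT1G18540 (64.1), the L7 genes AT2G01250 (65.9) and AT2G44120 (49.5), RPL23AB (AT3G55280; 42.9), RPL24A (AT2G36620; 36.2), RPL3B (AT1G61580; 28.9) and the L9 gene AT4G10450 (17.9 CPM per kb). STV1 and RPL24A encode L24, which aids reinitiation on messages with upstream reading frames, and L23a proteins sit at the mouth of the exit tunnel.

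Of the small subunit genes, P40 (AT1G72370), which encodes protein SA, was at 264.3 CPM per kb. RPS6B (AT5G10360) and RPS6A (AT4G31700), the S6 genes whose protein is phosphorylated by the S6 kinase downstream of TOR, were at 149.0 and 137.5 CPM per kb. RPS5A (AT3G11940), known for strong expression in dividing cells, was at 146.0 and RPS5B (AT2G37270) at 80.1 CPM per kb. The S10 gene RPS10B (AT5G41520) was at 124.6, and the S3 gene AT2G31610, whose protein lies at the mRNA entry, at 124.1 CPM per kb. RPS18C (AT4G09800) was at 111.0, AT1G34030 at 84.2 and PFL (AT1G22780) at 67.5 CPM per kb; these are the S18 genes, and PFL is known for the pointed first leaves of its mutant. The S13 genes RPS13A (AT4G00100) and AT3G60770 were at 101.5 and 90.1, and RPS15A (AT1G07770) at 69.0 CPM per kb.

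The members shared much of their pattern over the treatments. Of the 45 genes, 28 had their highest mean level in AhHAB4-PAI-1 OE at HS-1, 10 in Ah2880 OE at HS-11 and 7 in WT at HS-11. The lowest mean was in WT at R-3 for 38. With WT R-3 left out, it was in Ah2880 OE at R-1 for 26, for 10 in Ah2880 OE at R-3 and for 6 in AhHAB4-PAI-1 OE at HS-11. The Pearson correlation over the 15 treatments of each member's log2 level with the median of the other members was lowest for RPL16A (AT2G42740), at 0.135, followed by 0.63 for RPSAb (AT3G04770), 0.721 for STV1 (AT3G53020) and 0.742 for the S28 gene AT3G10090. It reached 0.99 for the L15 gene AT4G16720. These values are descriptions, since the treatments share lines, stages and scaling.

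**Figure D1:**
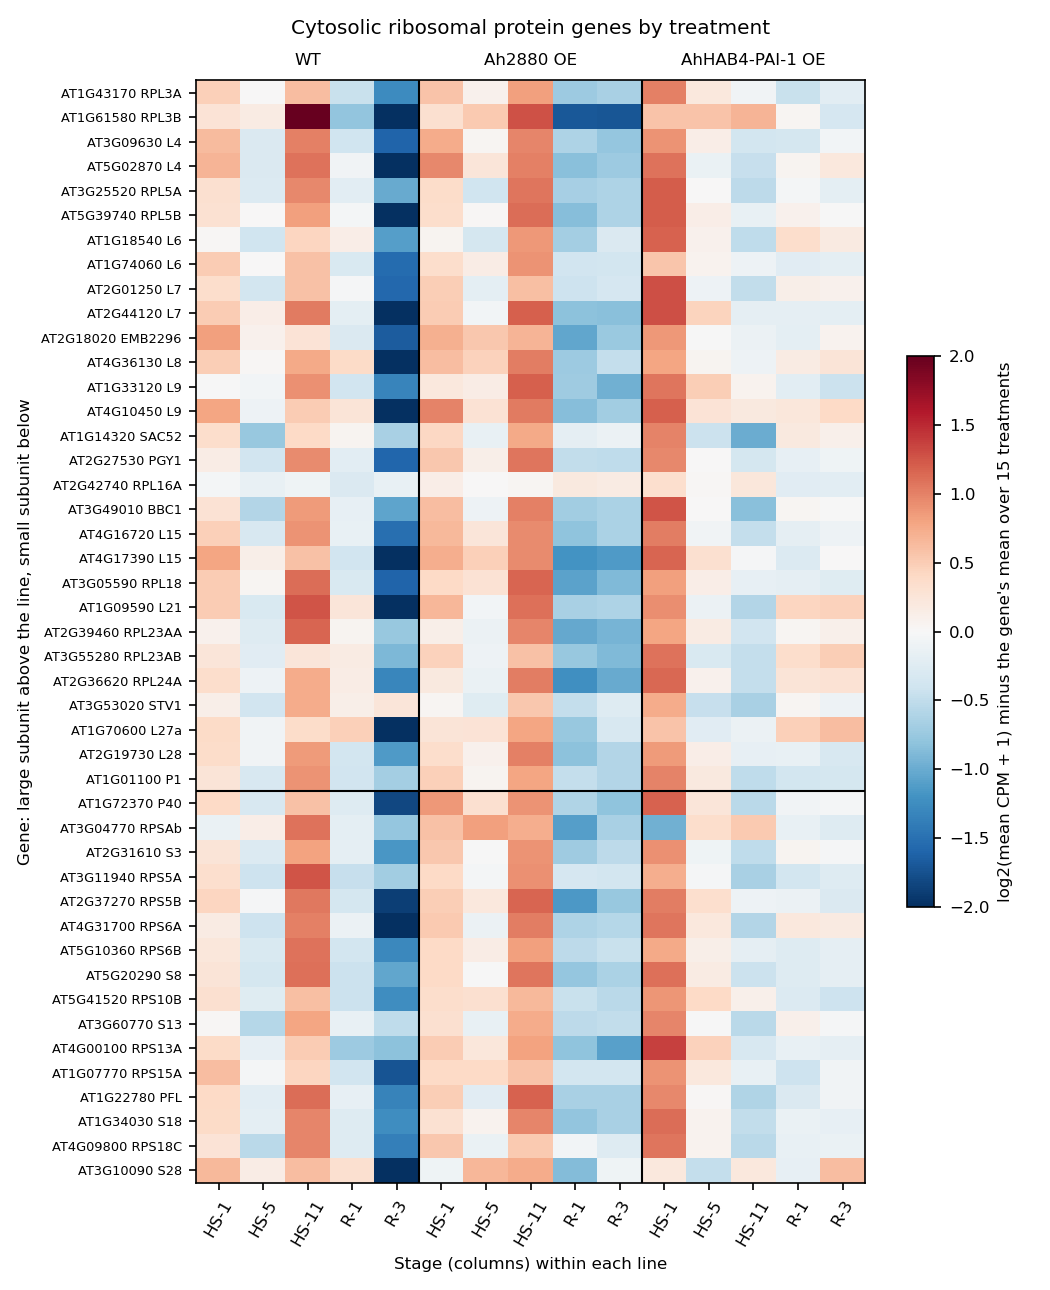
Level of each of the 45 genes (rows) in each of the 15 treatments (columns, by line), as log2(mean CPM + 1) minus the gene's mean over the treatments. The color scale ends at -2 and 2, and red columns at HS-11 in WT and Ah2880 OE and at HS-1 in AhHAB4-PAI-1 OE contrast with the pale row of RPL16A.

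Summed over the 45 genes, the level was 8361.5 and 8420.1 CPM in the WT libraries at HS-1, 5460.0 and 5467.2 at HS-5, 10807.9 and 11761.1 at HS-11, 5762.5 and 5111.1 at R-1, and 2255.2 and 2513.1 at R-3. In Ah2880 OE the sums were 9282.1 and 8949.3 CPM at HS-1, 7432.3 and 6281.4 at HS-5, 12052.8 and 12047.9 at HS-11, 4046.8 and 3808.8 at R-1, and 4158.4 and 4016.4 at R-3. In AhHAB4-PAI-1 OE they were 13379.5 and 11916.1 CPM at HS-1, 6789.3 and 6781.6 at HS-5, 5075.3 and 5098.6 at HS-11, 6410.3 and 5377.0 at R-1, and 5749.7 and 6457.1 at R-3. On this scale WT and Ah2880 OE thus had a dip at HS-5 and a peak at HS-11. AhHAB4-PAI-1 OE had its peak at HS-1 and its lowest sums at HS-11. As a share of all counts, with no TMM scaling, the members held 0.800% and 0.834% in WT at HS-11, 1.035% and 1.054% in Ah2880 OE, and 0.603% and 0.614% in AhHAB4-PAI-1 OE. The dip from HS-1 to HS-5 was not seen in these shares in WT, which were 0.568% and 0.581% at HS-1 against 0.567% and 0.568% at HS-5. Nor was it seen in Ah2880 OE (0.654% and 0.638%, then 0.680% and 0.653%). In AhHAB4-PAI-1 OE the shares of HS-11 overlapped those of HS-5 (0.628% and 0.604%). Those of HS-1 (0.789% and 0.699%) overlapped those of R-1 (0.768% and 0.668%).

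**Figure D2:**
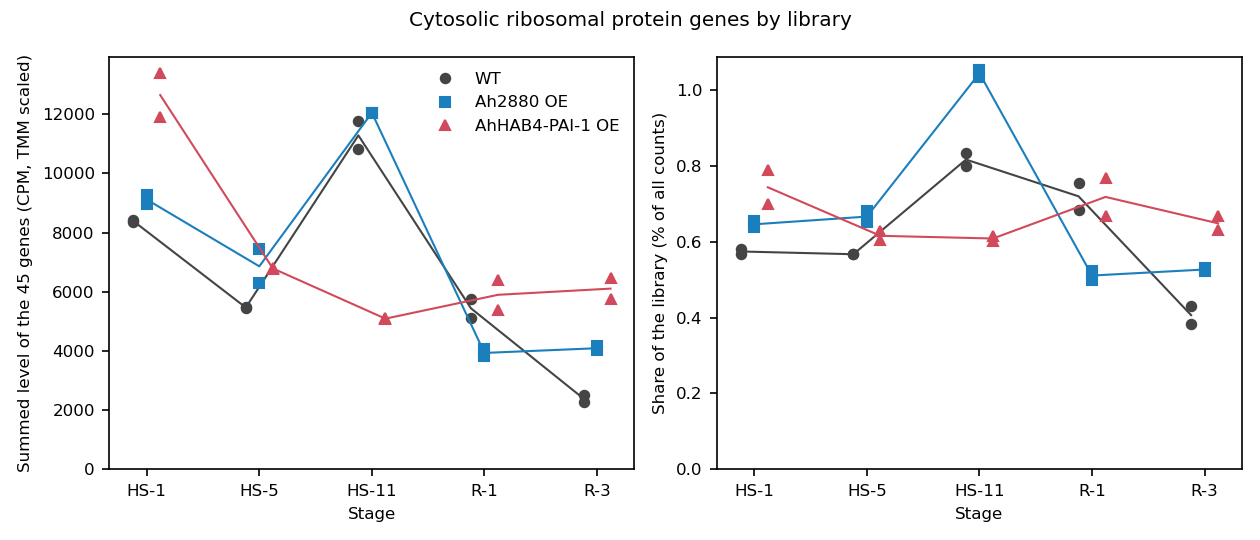
Summed level of the 45 genes in each library (points) by stage, as TMM-scaled CPM (left) and as percent of all counts of the library (right); lines join the means of each line. AhHAB4-PAI-1 OE lies below WT and Ah2880 OE at HS-11 in both panels, by more on the scaled axis (5075.3 and 5098.6 CPM against at least 10807.9).

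The 2 panels differ because TMM factors ranged from 0.587 to 1.717 and moved with stage. They were 0.71 and 0.741 in WT at HS-11, where the 20 most abundant genes took 15.8% to 18.2% of counts and organelle genes 2.39% to 4.13%. They were 1.192 and 1.209 in AhHAB4-PAI-1 OE at HS-11, where those genes took 7.18% to 7.23% and 1.49% to 1.505%. The part of these differences in the results below was not tested, and counts of called members are therefore given also under scaling to total counts, where these change them. Shares of all genes called are those with TMM. The share called under total counts is not given here, so member counts on that scale have no background to be read against. The median change of the members minus the median change of all genes is given as the relative median. A change of scaling shifts all genes of a comparison by nearly the same amount, so this value is nearly fixed by construction. Its likeness between scalings is therefore not a check of a result.

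Members were called higher or lower where edgeR's quasi-likelihood test gave an adjusted p under 0.01 over all 19761 genes tested. Early in HS, at HS-1, the AhHAB4-PAI-1 OE line had higher levels of many RP genes than WT. Of the 45 members, 28 were called higher (16 of 29 large and 12 of 16 small subunit genes) and none lower, with 6.77% of all genes called higher. The median log2 fold change was 0.58 against -0.05 for all genes. A higher level was called for 19 members with total counts as the scale, for 16 without replicate 1 of AhHAB4-PAI-1 OE, and for 33 with DESeq2 size factors. Both OE libraries were above both WT libraries for 41 members and below them for 2, against 27.3% and 33.9% of all genes. Summed markers of mesophyll were also higher than in WT, at 36340 to 42610 CPM against 31260 to 33200. Those of phloem companion cells (321.3 to 394.6 against 737.8 to 750.7) and epidermis (439.8 to 462.6 against 793.8 to 819.3) were lower, and the part of these in the result was not tested.

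The L6 gene AT1G18540 and the L9 gene AT1G33120 lay furthest above WT at HS-1 in AhHAB4-PAI-1 OE. AT1G18540 stood at 244.3 and 171.0 CPM against 89.5 and 97.0 in WT, a log2 fold change of 1.11 ± 0.15 (SE, adjusted p = 5.796e-08, edgeR). AT1G33120 stood at 817.3 and 630.1 CPM against 344.0 and 335.8, a log2 fold change of 1.08 ± 0.13 (adjusted p = 4.524e-09). Both OE libraries were above both WT libraries for each gene, with replicate 1 the higher. The smallest called differences from WT were in RPL3A (AT1G43170) and the L4 gene AT5G02870. RPL3A stood at 1007.0 and 860.7 CPM against 630.1 and 659.1 (log2 0.53 ± 0.11). AT5G02870 stood at 669.3 and 778.0 CPM against 537.0 and 544.4 (log2 0.43 ± 0.11). RPSAb (AT3G04770) had a log2 fold change of -0.98 at 5.92 and 4.91 CPM against 10.4 and 10.3, and was not called.

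In Ah2880 OE at HS-1, P40 (AT1G72370) alone was called higher, with 2.98% of all genes called higher (2 members under total counts). It stood at 566.7 and 532.7 CPM against 411.9 and 388.0 in WT, a log2 fold change of 0.46 ± 0.11 (adjusted p = 0.005531, edgeR). The call was lost in each of the 4 fits that left out a library. The median of the members was 0.10 against -0.02 for all genes.

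**Figure D3:**
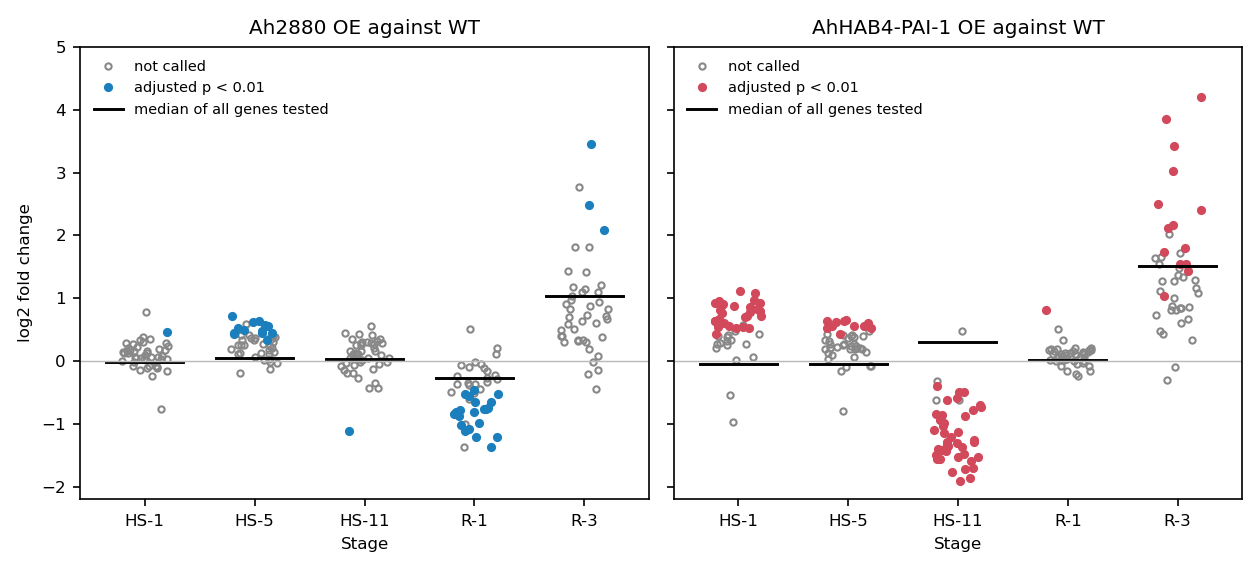
Log2 fold change of each of the 45 genes (points) in each OE line against WT by stage, with filled points at an adjusted p under 0.01 and a bar at the median of all genes tested. Points above 5 at R-3 (4 in all, for genes at 0 in WT) are left out; in AhHAB4-PAI-1 OE 41 members are called lower at HS-11, of which 25 are called under total counts and 2 are called higher there.

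At HS-5 a minority of the RP genes were called above WT in each OE line, and none was called below. Most had a log2 fold change above 0, 41 of 45 in Ah2880 OE and 40 in AhHAB4-PAI-1 OE. Both OE libraries were above both WT libraries for 30 and 34 members and below them for 2 and 3. Of all genes, 34.7% and 29.3% were above and 30.6% and 35.3% below. In Ah2880 OE 13 members were called higher (12.1% of all genes), with a median log2 fold change of 0.34 against 0.04 for all genes. In AhHAB4-PAI-1 OE 11 were called higher (8.61% of all genes), with a median of 0.27 against -0.05. Under total counts the counts were 7 and 2. The Ah2880 OE count was 2 without replicate 1 of Ah2880 OE and 17 without replicate 2, with medians of 0.21 and 0.45, and it was 5 without replicate 1 of WT and 6 without replicate 2 of WT. The AhHAB4-PAI-1 OE count was 6 and 4 without replicate 1 and 2 of AhHAB4-PAI-1 OE, and 3 and 4 without replicate 1 and 2 of WT. The Ah2880 OE libraries of HS-5 had the highest chi-square per degree of freedom of any pair, at 4.88, a value that also grows with depth. Their correlation of log2 CPM was 0.9759, within the range of all pairs (0.631 to 0.9905). Their summed mesophyll markers were at 25580 CPM in replicate 1 and 17110 in replicate 2, against 17050 to 17080 in WT, and those of dividing cells at 22.7 to 24.1 against 47.1 to 49.5. In AhHAB4-PAI-1 OE mesophyll markers (22760 to 25190) and those of dividing cells (83.2 to 83.7) were both above WT. Their part in the result was not tested.

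Those called in Ah2880 OE at HS-5 included both genes of protein SA. P40 (AT1G72370) stood at 368.9 and 383.6 CPM against 229.6 and 253.2 in WT (log2 0.64 ± 0.12, adjusted p = 1.428e-05, edgeR), and RPSAb (AT3G04770) at 23.01 and 18.84 against 11.8 and 13.4 (log2 0.72 ± 0.20, adjusted p = 0.003435). The OE libraries were above both WT libraries for each. RPS15A (AT1G07770) stood at 164.9 and 112.7 CPM against 102.9 and 102.0 (log2 0.43 ± 0.13), and the L4 gene AT3G09630 at 406.2 and 385.2 against 323.4 and 301.9 (log2 0.34 ± 0.10). Replicate 2 of Ah2880 OE lay close to WT for RPS15A. In AhHAB4-PAI-1 OE, 7 of the 16 small subunit genes and 4 of the 29 large subunit genes were called. The highest were RPS10B (AT5G41520; 157.5 and 152.2 CPM against 95.2 and 102.4, log2 0.65 ± 0.14) and RPS13A (AT4G00100; 119.9 and 124.8 against 76.4 and 81.1, log2 0.64 ± 0.16). The S8 gene AT5G20290 (386.2 and 305.0 CPM against 228.8 and 253.5, log2 0.52 ± 0.14) and the L4 gene AT3G09630 (415.4 and 428.6 against 323.4 and 301.9, log2 0.43 ± 0.11) were also called. Both comparisons share the WT libraries.

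Of the 10 comparisons with WT, the most members were called at HS-11 in AhHAB4-PAI-1 OE, which had lower levels of nearly all members than WT. Of 45 members, 41 were called lower (27 of 29 large and 14 of 16 small subunit genes) and none higher, with 23.6% of all genes called lower. The median log2 fold change was -1.26 against 0.30 for all genes, a relative median of -1.56. Under total counts 25 members were called lower and 2 higher, with a median of -0.53 against 1.03 for all genes. By construction the relative median was again -1.56. Above 0 lay 1 member with TMM and 10 under total counts. The count was 34 to 40 without any 1 of the 4 libraries. Summed mesophyll markers were also lower there, at 10310 to 10410 CPM against 17290 to 18410 in WT. Those of dividing cells were higher, at 48.6 to 48.8 against 37.0 to 38.5, and of phloem companion cells at 290.1 to 297.5 against 120.8 to 133.2. Their part in the result was not tested.

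RPS5A (AT3G11940, chr3:3777824-3779545) and the L21 gene AT1G09590 lay furthest below WT. RPS5A stood at 101.2 and 98.2 CPM in AhHAB4-PAI-1 OE against 363.3 and 385.3 in WT, a log2 fold change of -1.91 ± 0.13 (adjusted p = 2.229e-18, edgeR). AT1G09590 stood at 45.7 and 38.9 CPM against 132.7 and 173.7, a log2 fold change of -1.87 ± 0.16 (adjusted p = 2.799e-15). Both OE libraries lay far below both WT libraries for each gene, by much more than the replicates differed. The smallest called differences from WT were in the L8 gene AT2G18020 and the L27a gene AT1G70600, both of which were above 0 under total counts. AT2G18020 stood at 329.5 and 309.5 CPM against 376.4 and 459.4 (log2 -0.40 ± 0.13). AT1G70600 stood at 164.1 and 143.6 CPM against 207.8 and 225.3 (log2 -0.50 ± 0.15). The 4 members not called were the L9 gene AT4G10450, RPL16A (AT2G42740; log2 0.47), RPSAb (AT3G04770) and the S28 gene AT3G10090, which are also the 4 members with the lowest level per kb.

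In Ah2880 OE at HS-11, RPL3B (AT1G61580) alone was called lower, with 4.98% of all genes called lower, and no member was called higher (3.89% of all genes). RPL3B encodes the minor form of L3. It stood at 76.7 and 77.1 CPM against 178.4 and 155.9 in WT, a log2 fold change of -1.11 ± 0.15 (adjusted p = 9.545e-08, edgeR). The 3 members that the study lists for this treatment had log2 fold changes of 0.28 ± 0.13 (AT1G33120; 728.2 and 851.8 CPM against 653.8 and 645.5, adjusted p = 0.141), 0.16 ± 0.13 (AT2G44120; 166.6 and 195.4 against 161.0 and 160.7, adjusted p = 0.4681) and 0.05 ± 0.14 (RPL18, AT3G05590; 373.7 and 294.3 against 300.3 and 344.1, adjusted p = 0.8702). None was called, and the lines overlapped for RPL18. The study reports accumulated RP transcripts for this treatment and names further RP genes. It drew its list from gene groups defined by transcription factors, so the contrast with WT given here is not a test of that list. Under total counts 12 members were called higher and 1 lower, while the median of all genes moved from 0.03 to 0.29. By construction the relative median was 0.08 under both scales.

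After a day of recovery the order of the lines was another. In Ah2880 OE at R-1, 21 members were called lower than in WT (18 of 29 large and 3 of 16 small subunit genes) and none higher, with 18% of all genes called lower. The median was -0.52 against -0.28 for all genes. The count was 22 under total counts, 10 without replicate 2 of Ah2880 OE and 12 without replicate 1 of WT. In a fit that left out both WT libraries of R-3 it was 14, with a median of -0.34 against -0.10, and with only the libraries compared it was 15, with a median of -0.32 against -0.04. The relative median was -0.25 with all libraries, and -0.24 and -0.28 in these fits. Summed markers of mesophyll (5894 to 6068 CPM against 7136 to 8344), guard cells (6.58 to 9.01 against 27.5 to 31.1), xylem (4.39 to 4.505 against 51.5 to 52.4) and dividing cells (6.58 to 7.88 against 20.4 to 24.6) were also lower than in WT, and their part in the result was not tested.

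RPL24A (AT2G36620), which encodes L24, stood at 10.1 and 15.4 CPM in Ah2880 OE at R-1 against 36.2 and 32.8 in WT, a log2 fold change of -1.37 ± 0.26 (adjusted p = 2.62e-05, edgeR). The L9 gene AT4G10450 stood at 14.6 and 8.78 CPM against 30.5 and 21.9, a log2 fold change of -1.22 ± 0.29 (adjusted p = 0.0006032). Both OE libraries were below both WT libraries, although the pairs differed within Ah2880 OE. The smallest called differences from WT were in RPL5A (AT3G25520) and RPS6A (AT4G31700). RPL5A stood at 118.3 and 111.9 CPM against 162.3 and 153.0 (log2 -0.46 ± 0.14). RPS6A stood at 100.2 and 84.9 CPM against 142.5 and 121.1 (log2 -0.52 ± 0.15). In AhHAB4-PAI-1 OE at R-1, RPL3B (AT1G61580) alone was called higher (4.71% of all genes), at 34.5 and 29.4 CPM against 16.9 and 18.3 in WT (log2 0.81 ± 0.18, adjusted p = 0.0007492); without replicate 1 of WT no member was called. The other 44 members were not called there, and the members' median of 0.10 was close to that of all genes (0.02).

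At R-3 the comparisons rest on the shallow WT libraries. The members had a median of 7 counts in the 2 WT libraries together, 18 members had 5 or fewer, and the L9 gene AT4G10450 and the S28 gene AT3G10090 had none. In Ah2880 OE 3 members were called higher (4.1% of all genes) and in AhHAB4-PAI-1 OE 14 (11.7% of all genes), and none lower. The medians were 0.74 and 1.34 against 1.03 and 1.51 for all genes, and were 0.71 and 1.28 with the genes at 0 set at 3 counts over both WT libraries. The order of members and all genes turned in DESeq2's Wald test (0.495 and 1.07 against 0.14 and 0.53) and with only the libraries compared (0.56 and 1.20 against 0.35 and 0.98). The counts were 0 and 7 without replicate 1 of WT, and 1 and 6 under total counts. In AhHAB4-PAI-1 OE, RPL3A (AT1G43170) stood at 362.2 and 432.4 CPM against 176.4 and 207.5 (log2 1.04 ± 0.24, adjusted p = 0.0006676, edgeR) and the L15 gene AT4G16720 at 151.4 and 177.0 against 88.2 and 34.6 (log2 1.44 ± 0.38, adjusted p = 0.002986). In Ah2880 OE, the L4 gene AT5G02870 stood at 195.6 and 213.3 CPM against 37.8 and 57.6 (log2 2.09 ± 0.36, adjusted p = 2.813e-05). The OE libraries were above both WT libraries for these 3 genes.

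Of the members called at R-3, 5 had 5 or fewer counts in the WT libraries together, and a ratio with its counting interval is given for them. The L8 gene AT4G36130 had 1 and 0 counts in WT, and its ratio was 18.6 in AhHAB4-PAI-1 OE (95% exact interval 3.33 to 736) and 11.0 in Ah2880 OE (1.96 to 437). The L21 gene AT1G09590 had 0 and 1 counts, and its ratio in AhHAB4-PAI-1 OE was 14.2 (2.55 to 563). The L27a gene AT1G70600 had 3 and 1 counts, and its ratio was 10.6 in AhHAB4-PAI-1 OE (4.15 to 39.1) and 5.66 in Ah2880 OE (2.19 to 20.8). In AhHAB4-PAI-1 OE the ratio was 5.21 (2.03 to 19.2) for RPL5B (AT5G39740), with 1 and 3 counts, and 5.65 (1.56 to 46.8) for the L7 gene AT2G44120, with 0 and 2. These intervals cover counting error only, and they are wide enough that the ratios cannot be ranked. AT4G10450 and AT3G10090, at 0 in WT, are not among the members called. With 3 counts over both WT libraries as the floor, the ratio of AT4G10450 was at least 1.6 in AhHAB4-PAI-1 OE and 0.688 in Ah2880 OE. For AT3G10090 these bounds were 0.377 and 0.229. A bound below 1 leaves the direction open. The others called in AhHAB4-PAI-1 OE were both L4 genes (AT3G09630, at 369.9 and 369.8 CPM against 126.0 and 126.8, and AT5G02870), the L8 gene AT2G18020, PGY1, the L15 gene AT4G17390, P40 and RPS6A.

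Within each line, successive stages show the course of the RP genes. From HS-1 to HS-5, 35 members were called lower in WT (21% of all genes), 21 in Ah2880 OE (17.4%) and 39 in AhHAB4-PAI-1 OE (13.5%), with median log2 fold changes of -0.55, -0.41 and -0.88. Under total counts there were 3 lower and 3 higher in WT, 7 higher and none lower in Ah2880 OE, and 8 lower and 2 higher in AhHAB4-PAI-1 OE, so the direction of this step held only relative to other genes in WT and Ah2880 OE, where the median of the members turned to 0.05 under total counts. The relative medians were -0.55, -0.44 and -0.88 with TMM and -0.54, -0.445 and -0.87 with total counts. The Ah2880 OE count was 13 without replicate 1 at HS-1 and 12 without replicate 2 at HS-5.

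SAC52 (AT1G14320), the L10 gene, fell most at this step in WT and in AhHAB4-PAI-1 OE. It stood at 358.4 and 354.1 CPM at HS-1 and 164.6 and 163.6 at HS-5 in WT (log2 -1.12 ± 0.12), and at 577.5 and 536.9, then 209.8 and 205.0, in AhHAB4-PAI-1 OE (log2 -1.42 ± 0.14). AT1G33120 did not follow in WT, at 344.0 and 335.8 CPM at HS-1 and 316.8 and 342.2 at HS-5 (log2 -0.05 ± 0.13). RPSAb (AT3G04770) was the only member called higher in AhHAB4-PAI-1 OE (8.66% of all genes), from 5.92 and 4.91 CPM to 16.0 and 13.7 (log2 1.49 ± 0.42, adjusted p = 0.004355, edgeR), and this call was lost in DESeq2's Wald test, without either library of HS-1 and without replicate 1 of HS-5.

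From HS-5 to HS-11 the RP genes rose together in WT and in Ah2880 OE but not in AhHAB4-PAI-1 OE. In WT 40 members were called higher (21.6% of all genes), with a median of 1.08 against -0.32 for all genes. In Ah2880 OE 39 were called higher (19.3% of all genes), with a median of 0.83 against -0.25. In AhHAB4-PAI-1 OE 18 were called lower (11.7% of all genes), with a median of -0.40 against 0.05, and none higher. Under total counts 27 were called higher and 1 lower in WT and 35 higher in Ah2880 OE, whereas in AhHAB4-PAI-1 OE 3 were called lower and 2 higher and the median turned to 0.00. The AhHAB4-PAI-1 OE count was 7 and 11 without replicate 1 and 2 at HS-5, 9 and 10 without replicate 1 and 2 at HS-11, and 11 in DESeq2's Wald test.

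RPL3B (AT1G61580, chr1:22720560-22723152) rose most in WT at this step, from 36.3 and 33.8 CPM at HS-5 to 178.4 and 155.9 at HS-11, a log2 fold change of 2.24 ± 0.14 (adjusted p = 6.295e-20, edgeR). RPS5A (AT3G11940) rose from 115.9 and 116.5 CPM to 363.3 and 385.3 (log2 1.69 ± 0.13). In Ah2880 OE the largest rise was in RPL5A (AT3G25520), from 145.0 and 131.6 CPM to 398.9 and 372.9 (log2 1.48 ± 0.13), and PFL (AT1G22780) followed, from 41.8 and 37.4 CPM to 107.4 and 107.4 (log2 1.44 ± 0.15). The HS-11 libraries were well above the HS-5 libraries for each of these genes. RPL16A (AT2G42740) and the L8 gene AT2G18020 were not called in either line. In AhHAB4-PAI-1 OE, BBC1 (AT3G49010) fell most, from 126.2 and 143.5 CPM to 74.8 and 73.7 (log2 -0.86 ± 0.15), and RPS6A (AT4G31700) fell from 158.2 and 174.5 CPM to 92.1 and 98.3 (log2 -0.81 ± 0.13).

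From HS-11 to R-1, with the rest of the 22 h of HS and a day of recovery between, WT and Ah2880 OE lost the rise again. In WT 38 members were called lower (25.3% of all genes), with a median of -1.06 against 0.32 for all genes. In Ah2880 OE 43 were called lower (29.1% of all genes), with a median of -1.71 against -0.14. In AhHAB4-PAI-1 OE 15 were called higher (24.9% of all genes) and 4 lower (24%), with a median of 0.20 against 0.01. Calls in AhHAB4-PAI-1 OE thus went in both directions, as they did for all genes. Under total counts the WT count became 10 lower and 6 higher, while that of Ah2880 OE was 38 and those of AhHAB4-PAI-1 OE 16 and 4.

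RPL3B (AT1G61580) fell most in WT and Ah2880 OE, to 16.9 and 18.3 CPM in WT (log2 -3.23 ± 0.16, adjusted p = 3.271e-25, edgeR) and to 9.01 and 8.78 CPM in Ah2880 OE (log2 -3.11 ± 0.26, adjusted p = 8.188e-16). In AhHAB4-PAI-1 OE it went from 47.9 and 53.1 CPM to 34.5 and 29.4 (log2 -0.70 ± 0.15), a smaller step from a lower level. The other 3 called lower there were RPSAb (AT3G04770; log2 -0.75 ± 0.22), RPS10B (AT5G41520; log2 -0.43 ± 0.14) and RPL3A (AT1G43170; log2 -0.38). Of these calls 1 was left without either library of HS-11, and 0 without replicate 2 of R-1. SAC52 (AT1G14320) rose most in AhHAB4-PAI-1 OE, from 142.9 and 138.2 CPM to 356.5 and 282.5 (log2 1.17 ± 0.13). The 2 members not called in Ah2880 OE were RPL16A and the S28 gene AT3G10090.

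From R-1 to R-3, 12 members were called lower in WT (7.88% of all genes), with a median of -1.20 against -1.39 for all genes (-1.17 with the genes at 0 set at 3 counts). The members' median lay below that of all genes in DESeq2's Wald test (-1.01 against -0.53) and with only the libraries compared (-1.14 against -0.96). The count was 5 without replicate 1 of WT at R-3, and 7 under total counts. In Ah2880 OE no member and no gene was called in either direction (0% of all genes higher, 0% lower, edgeR). At an unadjusted p under 0.05, 2 members were higher, and DESeq2's Wald test also called no member. Summed phloem companion cell markers were at 63.65 to 70.96 CPM at R-1 and 67.48 to 69.54 at R-3 in this line. Mesophyll markers were at 5894 to 6068 and 6732 to 6918 CPM. TMM factors were 1.296 to 1.311 and 1.279 to 1.304. Stage came from the labels, and whether these libraries differ in stage was not tested. In AhHAB4-PAI-1 OE no member was called either, against 10.9% of all genes higher and 6.7% lower (1 member lower under total counts). Before adjustment 5 members were above and 1 below at p under 0.05 there, and DESeq2's Wald test called none. The 26 plastid RP genes, which encode ribosomal proteins of the chloroplast, had 14 called higher at this step in AhHAB4-PAI-1 OE, with a median of 0.46 (3 and 0.26 under total counts).

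Whether a step differed between an OE line and WT was tested directly, as the change in the OE line minus that in WT. For HS-5 to HS-11 the AhHAB4-PAI-1 OE change was called lower than the WT change in 38 members (20.2% of all genes), with a median difference of -1.50 against 0.41 for all genes, and in 23 (with 3 higher) under total counts. The largest differences were in BBC1 (AT3G49010; log2 -2.31 ± 0.21, adjusted p = 6.841e-14, edgeR), RPS5A (AT3G11940; -2.31 ± 0.19) and RPS6A (AT4G31700; -2.23 ± 0.19). For HS-11 to R-1 it was called higher in 37 members (20.3% of all genes), with a median difference of 1.33 against -0.29, and in 21 (with 1 lower) under total counts. RPL3B (AT1G61580; 2.53 ± 0.22) and the L21 gene AT1G09590 (2.04 ± 0.22) led there. Both differences share the HS-11 libraries, so they are not separate evidence.

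For Ah2880 OE the differences in step were fewer. From HS-5 to HS-11 the change was called lower than in WT for 6 members (6.33% of all genes), which were RPL3B (AT1G61580; log2 -1.47 ± 0.21), RPSAb (AT3G04770; -1.14 ± 0.33), RPS18C (AT4G09800; -0.85 ± 0.22), RPS6B, RPS5A and the L4 gene AT5G02870. This count was 2 without replicate 1 of Ah2880 OE at HS-5 or HS-11 or replicate 2 of WT at HS-11, and 1 without replicate 1 of WT at HS-5, and under total counts 5 were higher and 1 lower. From HS-11 to R-1 the change was called lower for 17 members (12.5% of all genes), with a median difference of -0.59 against -0.37 for all genes, led by the L9 gene AT4G10450 (-1.78 ± 0.37), the L27a gene AT1G70600 (-1.65 ± 0.22) and RPL24A (AT2G36620; -1.65 ± 0.33). This count was 8 without replicate 2 of Ah2880 OE at R-1, 11 without replicate 1 of WT at R-1 and 29 under total counts.

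Genes of the same family did not keep a fixed ratio. Shares of a family's summed CPM are given for the families with 2 or more members, over 14 treatments without WT R-3, as a description. RPL3B (AT1G61580) made up 2.93% of the L3 pair in Ah2880 OE at R-3 and 19.0% in WT at HS-11, around a mean of 7.32%. RPSAb (AT3G04770) made up 0.788% of the SA pair in AhHAB4-PAI-1 OE at HS-1 and 7.57% at HS-11 in the same line. RPL24A (AT2G36620) made up 22.1% of the L24 pair in Ah2880 OE at R-1 and 42.1% in AhHAB4-PAI-1 OE at HS-5. RPS5A (AT3G11940) made up 54.9% of the S5 pair in AhHAB4-PAI-1 OE at HS-11 and 76.0% in Ah2880 OE at R-1. In pairs of more equal level, the L6 gene AT1G18540 ranged from 37.8% to 57.2%, the L7 gene AT2G01250 from 37.8% to 56.7%, the S13 gene AT3G60770 from 38.5% to 57.0%, RPS6A (AT4G31700) from 39.8% to 54.9% and RPL5A (AT3G25520) from 51.1% to 61.8%. The L9 gene AT1G33120 ranged from 89.7% to 95.4%.

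**Figure D4:**
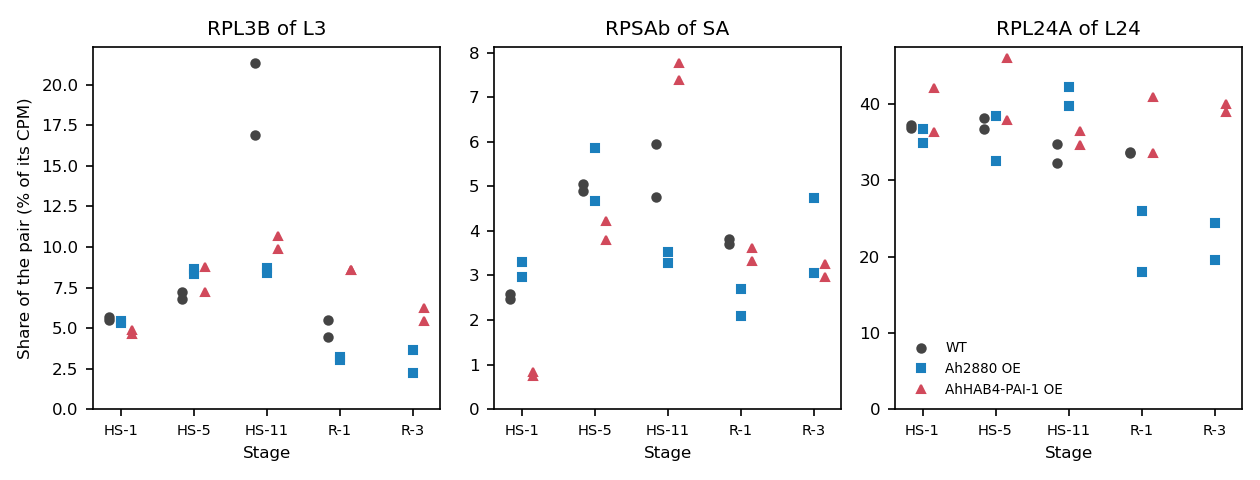
Share of RPL3B, RPSAb and RPL24A in the summed CPM of their family pair, in percent, for each library (points) by line and stage; WT R-3 is left out for its few counts. These 3 pairs were picked after their values were seen; RPL3B peaks in WT at HS-11 and RPSAb is lowest in AhHAB4-PAI-1 OE at HS-1.

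The coding sequences of family partners were 70.8% (SA) to 92.7% (L5) identical. Only uniquely mapped reads were counted, so that reads shared with a copy are lost rather than split. Of the 50-base windows of its transcript, 53.4% occurred elsewhere for the L9 gene AT1G33120, 38.1% and 36.3% for the L6 genes AT1G18540 and AT1G74060, 21.4% for the L8 gene AT4G36130 and 12.3% for the L21 gene AT1G09590, so their levels may be understated, by a part that was not measured. The other 40 members were below 10%.

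Other genes of the translation machinery were counted in the same comparisons. At HS-11 in AhHAB4-PAI-1 OE against WT, 22 of 28 other cytosolic RP paralogs tested were called lower and none higher, with a median of -0.91, against 23.6% of all genes lower and 29.5% higher. Of 26 plastid RP genes 25 were called lower (median -1.20). Of 26 translation factors 19 were called lower and 2 higher (median -1.11), from an elongation factor 1-beta gene (AT5G12110; log2 -2.57 ± 0.12) to EIF4G (AT3G60240; 2.60 ± 0.20), the scaffold of the cap-binding complex. Of 26 ribosome biogenesis genes, whose products process ribosomal RNA and assemble subunits, 8 were called higher and 9 lower, shares near those of all genes, from NAP57 (AT3G57150; 2.54 ± 0.17) to FZF (AT2G24500; -2.34 ± 0.12). Of 11 genes of TOR signalling, 5 were called higher and 3 lower, from GCN2 (AT3G59410; 1.55 ± 0.29), a kinase that slows initiation, to PK1 (AT3G08730; -1.62 ± 0.12), an S6 kinase. Under total counts 6 of the other paralogs were called lower and 1 higher (median -0.18), 15 and 2 of the plastid RP genes (-0.47), 12 and 5 of the translation factors (-0.38), 4 and 16 of the biogenesis genes (0.81), and 1 and 7 of the TOR genes (0.89).

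At R-1 in Ah2880 OE against WT, 25 of 26 plastid RP genes (median -1.29), 14 of 26 biogenesis genes (median -0.96), 12 of 28 other paralogs (median -0.62) and 5 of 26 translation factors (median -0.10) were called lower, while 6 of 11 genes of TOR signalling were called higher (11.1% of all genes). Under total counts these were 25, 16, 13 and 5 lower and 5 higher. The TOR list holds GCN2, which slows initiation, beside the S6 kinase PK1, so its count gives no direction of TOR signalling. The other paralogs lay close to the members (-0.52), and FIB2 (AT4G25630; -2.37 ± 0.32), which encodes a fibrillarin, was the lowest of the biogenesis genes. At HS-11 in Ah2880 OE, 9 plastid RP genes were called lower (4.98% of all genes) and 6 biogenesis genes higher (3.89%), while 1 member was called. Under total counts no plastid RP gene was called lower and 2 were called higher, and 12 biogenesis genes were called higher. For the WT step from HS-5 to HS-11, 22 of 28 other paralogs, 23 of 26 plastid RP genes and 19 of 26 translation factors were called higher, with EIF4E (AT4G18040; 1.93 ± 0.15) the highest of the last. Of the biogenesis genes 10 were called higher and 8 lower, against 21.6% and 27.9% of all genes. Under total counts the numbers called higher were 9, 13 and 16, with 2 plastid RP genes and 4 translation factors lower, and 5 biogenesis genes were higher and 11 lower.

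**Figure D5:**
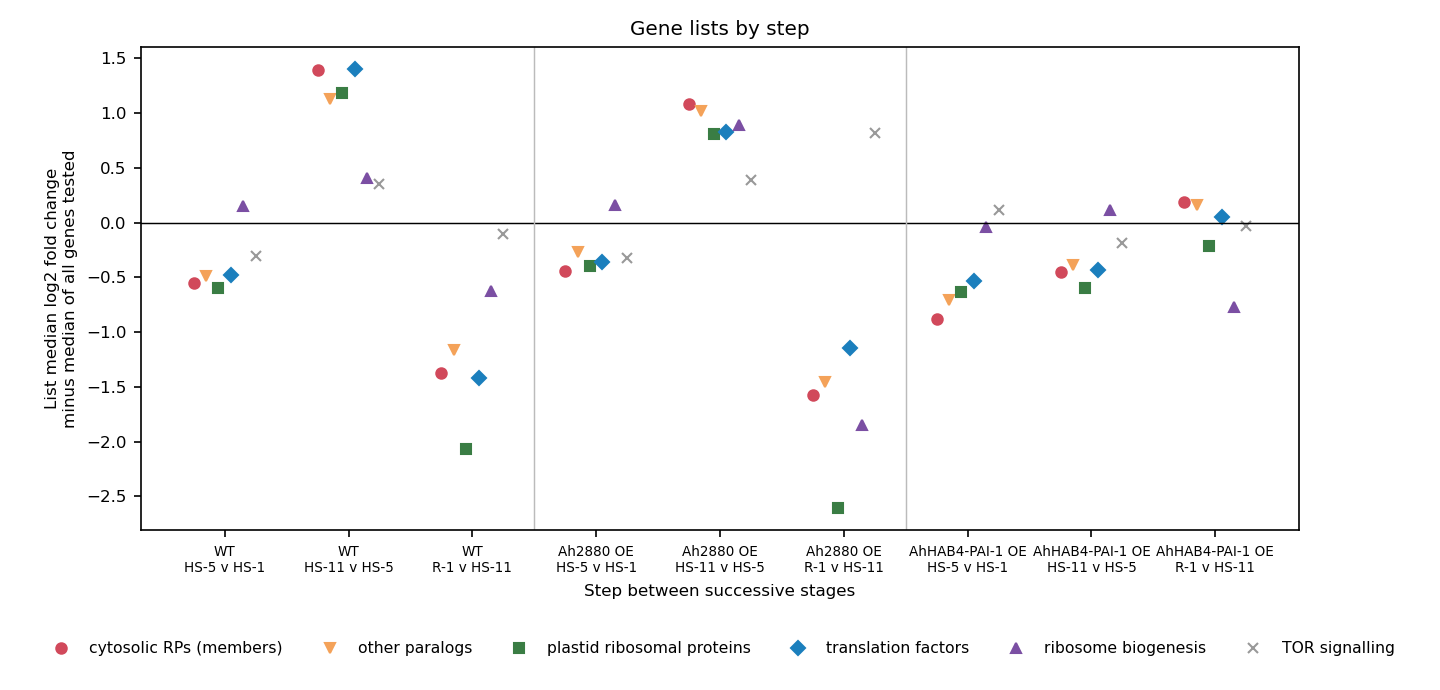
Median log2 fold change of each gene list minus the median of all genes tested, for 3 steps in each line; R-3 is left out. The members (circles) rise from HS-5 to HS-11 in WT and Ah2880 OE, by 1.396 and 1.081 relative to all genes, and lie at -0.45 in AhHAB4-PAI-1 OE, where their own median is 0.00 under total counts.

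The medians of members with and without a telo box are given as a description for 3 comparisons. At HS-11 in AhHAB4-PAI-1 OE against WT the median log2 fold change was -1.35 for the 23 members with a telo box and -1.18 for the 22 without, and -1.004 for the 6 with neither motif. For the WT step from HS-5 to HS-11 the medians were 1.18, 1.00 and 1.06. At R-1 in Ah2880 OE against WT they were -0.39 with a telo box, -0.77 without and -0.94 with neither motif. The ranges of the groups overlapped in each comparison. The motifs were also frequent among biogenesis genes, of which 50% held a telo box and 76.9% site II. Among plastid RP genes the shares were 15.4% and 46.2%, against 6.197% and 21.661% of all protein-coding genes. A part of the motifs in the changes was not tested.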

How the data were processed

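RNA was sequenced from 30 leaf libraries (15 treatments, 2 libraries each). The authors aligned paired reads to TAIR10 with Bowtie2, sorted them with Samtools, removed duplicates with Picard and counted uniquely mapped reads per gene with Subread. The deposited values are raw counts, with no normalization. The annotation release and strand setting are not given in the sources used here, so overlapping and antisense genes may share reads. Line, stage and replicate came from the labels.

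The analysis used edgeR 4.0.16 (R 4.3.3; filterByExpr by treatment, TMM, glmQLFit with legacy set to FALSE, glmQLFTest; limma 3.58.1). All 30 libraries entered 1 fit with a mean per treatment and no replicate block, and p-values were adjusted by the Benjamini-Hochberg method over 19761 genes (threshold 0.01). The biological coefficient of variation was 0.0772. Standard errors were taken from the log2 fold change and the F statistic (|log2 fold change| over the root of F). The script was tested on simulated data. Alternatives were DESeq2 1.42.0 (size factors, Wald test), total counts, no filter, the legacy fit, a replicate block, only the libraries compared, and leaving out libraries.

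Members, lists and tests were chosen with earlier results of these data known. In each OE comparison the text gives full values for the 2 highest and 2 lowest called members whose libraries do not overlap, and for 3 members that the study lists at HS-11 in Ah2880 OE. Replicate pairs differed beyond counting noise in every treatment (chi-square per degree of freedom 1.04 to 4.88), so each library was counted. Sequences are from RefSeq TAIR10.1, in which all 45 loci were found.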

Additional observations from a re-analysis of the deposited data

Results flagged for a closer look

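Differences in the change from stage to stage between an OE line and WT were tested directly with edgeR. Relative to WT, 38 members differed in AhHAB4-PAI-1 OE from HS-5 to HS-11 (20.2% of all genes in that direction) and 37 from HS-11 to R-1 (20.3%). In Ah2880 OE, 6 members differed from HS-5 to HS-11 (6.33% of all genes) and 17 from HS-11 to R-1 (12.5%). Every difference called was lower than in WT, except the 37, which were higher. The pairs of differences within a line share the HS-11 libraries, and all share WT libraries. The part of library composition, which also differed at HS-11, in these differences was not tested. Under total counts the numbers called in the same directions were 23, 21, 1 and 29.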

How the results depend on the processing

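Scaling to total counts changed most, and the share of all genes called on that scale is not given here. The members called higher were then 2 (Ah2880 OE against WT, HS-1), 7 (HS-5) and 1 (R-3), 2 (AhHAB4-PAI-1 OE against WT, HS-5) and 6 (R-3), and 2 for AhHAB4-PAI-1 OE from HS-1 to HS-5. Those called lower were 25 (AhHAB4-PAI-1 OE against WT, HS-11), 3, 10 and 7 for WT from HS-1 to HS-5, HS-11 to R-1 and R-1 to R-3, 0 for Ah2880 OE from HS-1 to HS-5, and 8, 3 and 1 for AhHAB4-PAI-1 OE from HS-1 to HS-5, HS-5 to HS-11 and R-1 to R-3. Of the differences in step, 1 and 29 (Ah2880 OE), 23 and 21 (AhHAB4-PAI-1 OE) were left. By construction the relative median hardly moved, at -1.38 under both scales for WT from HS-11 to R-1. Scaling to total counts moved the median of all genes there, from 0.32 to 1.20. It turned the sign of AT2G18020 (0.33) and AT1G70600 (0.23) in AhHAB4-PAI-1 OE at HS-11, AT2G44120 (0.22, WT, HS-1 to HS-5), AT1G70600 (-0.079, WT, HS-5 to HS-11), AT4G36130 (0.48, WT, HS-11 to R-1), AT4G16720 (0.043, Ah2880 OE, HS-1 to HS-5), and in the AhHAB4-PAI-1 OE differences in step AT1G74060 (0.14) and AT4G36130 (-0.17).

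With DESeq2's Wald test the counts that moved were 2 (Ah2880 OE, HS-1), 1 (R-3), 5 (AhHAB4-PAI-1 OE, R-3), 3 (WT, R-1 to R-3), 0 higher (AhHAB4-PAI-1 OE, HS-1 to HS-5) and 11 (HS-5 to HS-11). With only the libraries compared they were 8, 4 and 0 (Ah2880 OE, HS-1, HS-5, R-3), 18, 0 and 7 (AhHAB4-PAI-1 OE, HS-5, R-1, R-3), 2 (WT, R-1 to R-3), 2 lower (AhHAB4-PAI-1 OE, HS-11 to R-1) and 10 (Ah2880 OE difference, HS-11 to R-1). Without the filter they were 7 (Ah2880 OE, R-3) and 11 (that difference), which was 9 without the WT R-3 libraries. The cause of these changes was not tested. Other counts outside those that leave out 1 library stayed within 1.5 times (201 of 237). This tally leaves out new calls opposite to the direction called in the main fit. Under total counts these included 12 members higher in Ah2880 OE at HS-11 and 7 higher in Ah2880 OE from HS-1 to HS-5. In WT from HS-11 to R-1 they included 6 higher. Of the named members' values 389 kept direction and side of the threshold, 81 were no longer called, 1 was newly called and 8 turned sign.

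With 1 library left out, in which case a lone library is taken to vary like the other treatments, the counts against WT ranged over 0 to 0, 2 to 17, 1 to 1, 10 to 19 and 0 to 3 for Ah2880 OE (HS-1 to R-3) and 16 to 23, 3 to 6, 34 to 40, 0 to 2 and 7 to 17 for AhHAB4-PAI-1 OE. For successive steps they ranged over 25 to 26, 33 to 40, 33 to 37 and 5 to 13 in WT, 12 to 26, 33 to 42, 42 to 43 and 0 to 0 in Ah2880 OE, and 33 to 36 (higher 0 to 1), 7 to 11, 10 to 16 (lower 0 to 5) and 0 to 0 in AhHAB4-PAI-1 OE. For differences in step they were 1 to 8 and 8 to 16 (Ah2880 OE) and 36 to 38 and 33 to 39 (AhHAB4-PAI-1 OE). RPL18 (AT3G05590) in Ah2880 OE at HS-11 turned to -0.14 without replicate 1 of Ah2880 OE and to -0.04 without replicate 1 of WT, and lay at 0.21 at most (without replicate 2 of Ah2880 OE).

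Replicate numbers did not pair the libraries: over comparisons the correlation of same-numbered libraries' deviations lay between -0.206 and 0.118. A replicate block moved no count of members by more than 1 (41 called lower in AhHAB4-PAI-1 OE at HS-11, 12 higher in Ah2880 OE at HS-5, 36 lower in WT from HS-1 to HS-5). Depth limits R-3, where WT held a median of 7 counts per member.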
